A study of Mus musculus with 7 samples.

Results

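The B7 family, CD40 and CD83 are surface proteins through which dendritic cells give T cells costimulatory or inhibitory signals. The 8 genes Cd80, Cd86, Cd274, Pdcd1lg2, Icosl, Cd276, Cd40 and Cd83 were followed here, as 8 of 19938 genes that had a probeset with a single gene symbol. All 8 were measured, by 9 probesets, and the brighter of the Cd80 pair was kept by its mean over the 7 arrays. RNA was taken from lung dendritic cells of the CD11b+ conventional kind (cDC2s), with 10 female mice pooled for each array, and sorted as Cd11c+ Mhc2+ Cd11b+ Ly6c- Cd64- cells 12 hours after treatment. Wild type C57Bl/6 mice had received PBS, the saline control (2 arrays), or 100 µg of house dust mite (HDM) extract (2 arrays). Irf3-deficient mice, listed on the same strain background, had received the same extract (3 arrays). No source used here names the allele that removes Irf3, and PBS-treated Irf3-deficient mice were not analysed here. No source says that the pools of a group came from separate experiments, so the tests measure the spread between these pools only.

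A T cell that recognises antigen on a dendritic cell also reads the ligands displayed beside it. CD80 and CD86 bind the activating receptor CD28 and the inhibitory receptor CTLA-4, and PD-L1 (Cd274) and PD-L2 (Pdcd1lg2) bind the inhibitory receptor PD-1. ICOS ligand (Icosl) engages ICOS on activated T cells, and CD40 receives the CD40 ligand signal that T cells send back to the dendritic cell. CD83, a maturation marker, protects CD86 and MHC class II from removal from the surface.

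The sorted cells carried the defining genes of their label, but some of their own markers and those of other cells moved with the groups. Levels are on the log2 scale. Irf3, the targeted gene, read 9.48, 9.56, 9.59 and 9.57 on the wild type arrays and 8.26, 8.13 and 8.30 on the Irf3-deficient ones. A gene is said to rise, fall or differ only where its p-value, adjusted over all genes, was under 0.05 in a limma fit. By that rule 8.35% of all genes rose and 9.23% fell in wild type. Between the treated genotypes 10.7% of all genes were higher and 8.998% lower in Irf3-deficient cells. H2-Ab1 (MHC class II) read 14.2 to 14.3 and Itgax (CD11c) 12.6 to 13.0 as group means, while Itgam (CD11b) fell by 1.06 in wild type. Of 8 measured cDC2 and conventional markers 1 rose (Zbtb46, by 0.38) and 2 fell (Itgam and Cd209a, the latter by 0.41). In treated Irf3-deficient cells Zbtb46 was lower than in treated wild type by a difference of -0.49 (adjusted p = 0.00539). Itgam (0.72, adjusted p = 0.000225), Cd209a (0.46, adjusted p = 0.000881) and Itgax (0.31, adjusted p = 0.0179) were higher there. Of 8 measured monocyte and macrophage markers 7 fell in wild type and 1 rose, with mean log2 levels of 11.3 to 11.6 in untreated, 10.4 to 10.9 in treated wild type and 11.2 to 11.3 in Irf3-deficient arrays. The riser was Fcgr1, the gene of the CD64 that the gate excludes, by 1.79 (adjusted p = 2.2e-05), and it was lower in treated Irf3-deficient cells by a difference of -1.67 (adjusted p = 2.23e-05). All 5 measured markers of migratory mature dendritic cells rose, from a mean level of 12.6 to 12.7 in untreated to 13.5 in treated wild type, with 13.0 to 13.2 in Irf3-deficient arrays. Epithelial and endothelial markers fell in 4 of 5 cases, and the surfactant gene Sftpc had means of 13.1 with PBS, 12.5 with HDM in wild type and 12.0 with HDM in Irf3-deficient mice. Epcam, an epithelial adhesion gene of the same list, fell by 0.94 in wild type (adjusted p = 0.000363) and was higher in treated Irf3-deficient than in treated wild type cells by 1.78 (adjusted p = 8.61e-07). The mean level of that list was 11.03 to 11.30 with PBS, 10.18 to 10.77 with HDM in wild type and 10.58 to 10.64 in Irf3-deficient arrays. Of 3 plasmacytoid dendritic cell markers, Ccr9 was higher in treated Irf3-deficient than in treated wild type cells by 2.60 (adjusted p = 5.59e-08). In the same comparison Bst2 differed by -2.25 (adjusted p = 9.39e-08), while Siglech, at 0.07, did not pass (adjusted p = 0.799). The list's mean level was 8.06 to 8.15 with PBS, 8.78 to 8.80 with HDM in wild type and 8.89 to 8.98 in Irf3-deficient arrays. In wild type only Bst2 rose, by 2.44 (adjusted p = 7.27e-08), with Siglech at -0.31 (adjusted p = 0.125) and Ccr9 at -0.08 (adjusted p = 0.789). Against untreated wild type only Ccr9 was higher in treated Irf3-deficient cells, by 2.53 (adjusted p = 2.48e-07), with Bst2 at 0.19 and Siglech at -0.25. Of 6 markers of the other conventional lineage (cDC1), 2 rose and 2 fell in wild type, and 1 was higher and 2 lower in treated Irf3-deficient than in treated wild type cells. Irf8 rose by 1.61 (adjusted p = 1.45e-06) and differed between the treated genotypes by -1.19 (adjusted p = 1.06e-05), while the defining marker Xcr1 changed by 0.05 (adjusted p = 0.934) and 0.34 (adjusted p = 0.419). The mean cDC1 level was 9.61 to 9.95 with PBS, 9.79 to 10.06 with HDM in wild type and 9.51 to 9.77 in Irf3-deficient arrays. The part of these shifts in the members' differences was not tested.

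House dust mite extract raised 6 of the 8 genes in wild type cDC2s, though the rise of Icosl did not pass in every alternative. For the other 5, treated Irf3-deficient cells stood above the untreated wild type level to different extents. Cd80 rose in wild type and stood as far above the untreated level in treated Irf3-deficient cells, with a log2 difference between the treated genotypes of -0.01 (95% CI -0.18 to 0.16). Cd274, Cd40, Pdcd1lg2 and Cd86 lay between the untreated and the treated wild type levels. Icosl was lower in treated Irf3-deficient cells than in treated wild type cells, and none of its Irf3-deficient arrays reached the untreated wild type level. Cd276 was higher in treated Irf3-deficient than in treated wild type cells, and Cd83 passed in none of the 3 comparisons. In the wild type response 8.35% of all genes rose and 9.23% fell, against 6 members higher and 0 lower. The median log2 change was 0.81 over the members and 0.03 over all genes. Taken in either direction, 17.6% of all genes passed. The PBS and HDM arrays of wild type were fully apart for 7 of the 8 members, against 52.6% of all genes. In pooled cells, fewer cells of a type and less RNA per cell cannot be told apart.

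**Figure D1:**
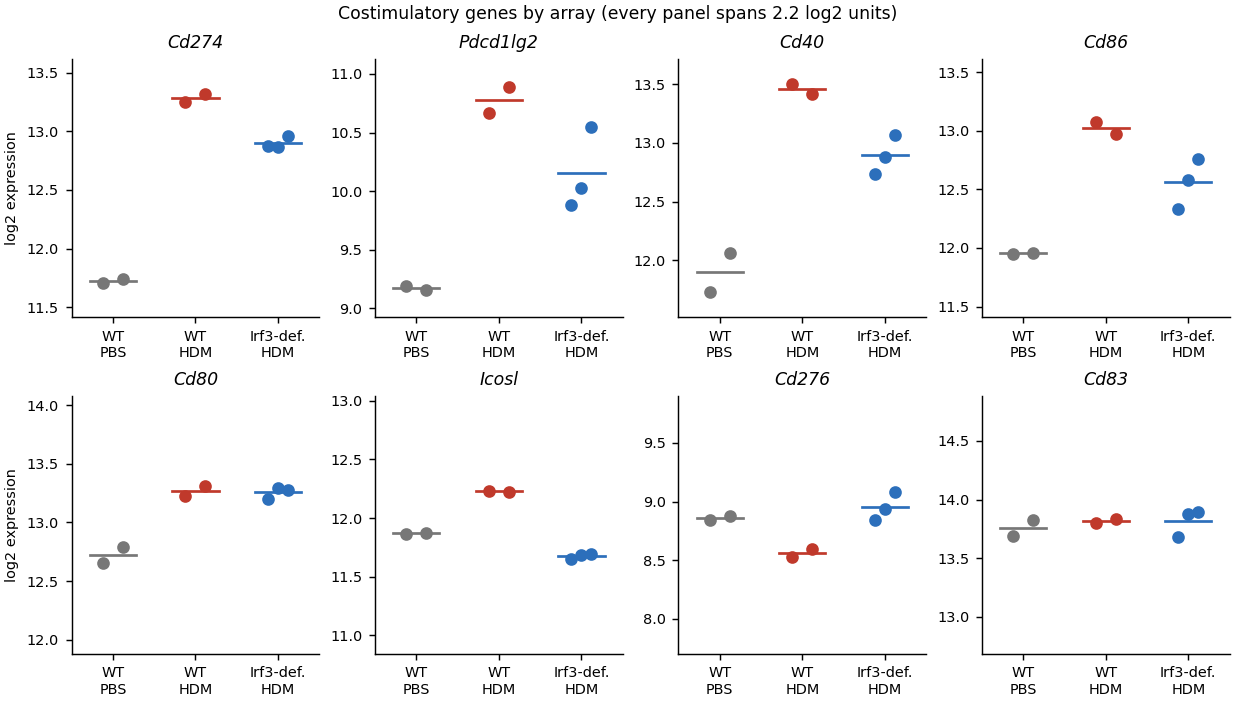
Log2 expression of the 8 genes on each array, by group (grey, PBS-treated wild type; red, treated wild type; blue, treated Irf3-deficient), with bars at the group means and the same span of log2 units in every panel. Treated wild type arrays sit above the untreated ones for Cd274, Pdcd1lg2, Cd40, Cd86, Cd80 and Icosl, and the 3 Irf3-deficient arrays of Icosl lie lowest of all.

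The genes of both PD-1 ligands rose in wild type. Cd274, which encodes PD-L1, read 11.71 and 11.74 (log2 level) on the PBS arrays, 13.25 and 13.32 on the wild type HDM arrays, and 12.87, 12.86 and 12.96 on the Irf3-deficient HDM arrays. The 3 groups did not overlap, and the Irf3-deficient arrays lay closer to the treated than to the untreated wild type arrays. In wild type the gene rose 2.95-fold (95% CI 2.60 to 3.36, adjusted p = 9.31e-08). In treated Irf3-deficient cells it was 1.31-fold lower than in treated wild type (95% CI 1.16 to 1.47, adjusted p = 0.00341), and 2.26-fold higher than in untreated wild type (95% CI 2.01 to 2.54, adjusted p = 3.55e-06).

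Pdcd1lg2 encodes PD-L2, the other ligand of PD-1, which is also linked to T helper 2 responses. Its log2 levels were 9.19 and 9.16 on the PBS arrays, 10.67 and 10.89 on the wild type HDM arrays, and 9.89, 10.03 and 10.55 on the Irf3-deficient HDM arrays. The groups did not overlap, but Irf3-deficient replicate 3 came within reach of the treated wild type arrays while the other two stayed near 10. The rise in wild type was 3.04-fold (95% CI 2.31 to 3.99, adjusted p = 4.76e-05). The treated genotypes differed 1.54-fold, with the Irf3-deficient level lower (95% CI 1.20 to 1.98, adjusted p = 0.0174). That difference did not pass without treated wild type replicate 2 (a log2 difference of -0.51, adjusted p = 0.136) or without Irf3-deficient replicate 2 (-0.56, adjusted p = 0.0661).

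Cd274 and Pdcd1lg2 are neighbours on chromosome 19 in the RefSeq annotation of GRCm38.p6, with 0 protein-coding genes between them. Their promoters are shown, with that of Icosl, because these members rose in wild type and were lower in treated Irf3-deficient than in treated wild type cells. Cd40 and Cd86 met the same rule, but no promoter entry was available for them here. Each stretch holds the 250 bases before the start that RefSeq gives for build GRCm38.p6, read 5′ to 3′ on the gene's strand, which is the plus strand for all 3. The positions are chr19:29367188-29367437 for Cd274, chr19:29410669-29410918 for Pdcd1lg2 and chr10:78069118-78069367 for Icosl, and capitals mark a match to the kB consensus, the motif of NF-kB factors.
Cd274: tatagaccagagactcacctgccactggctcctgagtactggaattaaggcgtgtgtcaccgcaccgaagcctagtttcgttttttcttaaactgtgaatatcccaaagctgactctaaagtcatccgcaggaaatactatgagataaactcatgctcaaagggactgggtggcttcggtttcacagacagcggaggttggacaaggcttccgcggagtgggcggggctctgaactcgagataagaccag
Pdcd1lg2: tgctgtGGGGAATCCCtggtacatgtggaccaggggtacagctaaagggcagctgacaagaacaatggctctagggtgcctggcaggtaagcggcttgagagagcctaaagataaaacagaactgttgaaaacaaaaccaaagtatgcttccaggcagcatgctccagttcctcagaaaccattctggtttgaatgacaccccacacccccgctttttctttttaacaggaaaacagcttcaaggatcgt
Icosl: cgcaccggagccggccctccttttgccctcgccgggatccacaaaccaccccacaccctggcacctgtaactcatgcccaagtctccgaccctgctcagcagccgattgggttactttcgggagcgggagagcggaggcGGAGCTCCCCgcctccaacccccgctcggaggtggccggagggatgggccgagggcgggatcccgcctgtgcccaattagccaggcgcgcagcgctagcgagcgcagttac

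Promoter windows of 5 of the 8 members (Cd80, Cd274, Pdcd1lg2, Icosl and Cd276) were searched on both strands, from 250 bases before to 50 after the start. The motifs were the kB consensus, the core of the interferon-stimulated response element, bound by IRF factors, and the GAS core, bound by STAT factors. Pdcd1lg2 had a kB match with its leftmost base at position -244 relative to the start, GGGGAATCCC, which reads as a match on both strands. Icosl had one on the minus strand, GGGGAGCTCC, with its leftmost base at -111. None of the 5 windows held the response element core or the GAS core. Over 32851 RefSeq promoter windows of the same length, 8.46% held a kB match, 3.44% the response element core and 8.30% the GAS core. A match describes the letters only, and a missing match concerns this window alone.

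CD40 is a receptor of the tumour necrosis factor family on the dendritic cell itself. Cd40 read 11.73 and 12.07 (log2 level) on the PBS arrays, 13.50 and 13.41 on the wild type HDM arrays, and 12.74, 12.88 and 13.07 on the Irf3-deficient HDM arrays. The groups did not overlap, although the untreated arrays were spread more widely than for most members, with a mean of 11.90 ± 0.24 (SD, n = 2). The gene rose 2.95-fold in wild type (95% CI 2.44 to 3.56, adjusted p = 2.56e-06). It was 1.48-fold lower in treated Irf3-deficient than in treated wild type cells (95% CI 1.24 to 1.76, adjusted p = 0.00373) and 2.00-fold higher than in untreated wild type (95% CI 1.68 to 2.37, adjusted p = 0.000217).

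Both ligands of CD28 and CTLA-4 rose in wild type. Cd86 read 11.95 and 11.96 (log2 level) on the PBS arrays, 13.07 and 12.97 on the wild type HDM arrays, and 12.33, 12.58 and 12.76 on the Irf3-deficient HDM arrays. The Irf3-deficient arrays covered much of the gap between the other groups without overlapping either. Cd86 rose 2.10-fold in wild type (95% CI 1.75 to 2.52, adjusted p = 5.04e-05). It was 1.38-fold lower in treated Irf3-deficient than in treated wild type cells (95% CI 1.17 to 1.63, adjusted p = 0.00993). It was 1.52-fold higher than in untreated wild type (95% CI 1.29 to 1.80, adjusted p = 0.00414). The difference between the genotypes did not pass without treated wild type replicate 1 (-0.42, adjusted p = 0.0628), nor the difference from untreated wild type without untreated replicate 1 (0.60, adjusted p = 0.0559).

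Cd80 read 12.65 and 12.79 on the PBS arrays, 13.23 and 13.31 on the wild type HDM arrays, and 13.20, 13.29 and 13.28 on the Irf3-deficient HDM arrays. Both treated groups lay above the untreated arrays and overlapped each other. Cd80 rose 1.46-fold in wild type (95% CI 1.29 to 1.66, adjusted p = 0.000617) and was 1.45-fold higher in treated Irf3-deficient than in untreated wild type cells (95% CI 1.29 to 1.63, adjusted p = 0.000962). Between the treated genotypes the log2 difference was -0.01 (95% CI -0.18 to 0.16, adjusted p = 0.958), and its sign turned under quantile normalisation and with the mean of its probesets. The dimmer Cd80 probeset had group means of 12.28 ± 0.12 (SD, n = 2), 12.76 ± 0.03 (SD, n = 2) and 12.94 ± 0.10 (SD, n = 3) in the same order. On that probeset the Irf3-deficient mean lay above the treated wild type mean by 0.18.

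Icosl, which encodes the ligand of ICOS, had the most tightly grouped arrays of the 8 members. Its log2 levels were 11.87 and 11.87 on the PBS arrays, 12.23 and 12.22 on the wild type HDM arrays, and 11.66, 11.68 and 11.69 on the Irf3-deficient HDM arrays. The groups did not overlap, with the Irf3-deficient arrays at the bottom. In wild type it rose 1.28-fold (95% CI 1.12 to 1.47, adjusted p = 0.0149). It was 1.46-fold lower in treated Irf3-deficient than in treated wild type cells (95% CI 1.29 to 1.66, adjusted p = 0.000453). Against untreated wild type the log2 difference was -0.19 ± 0.08 (SE), which did not pass (adjusted p = 0.184), although it passed when the values were quantile normalised again (-0.27, adjusted p = 0.0483). The rise in wild type did not pass after that step (0.23, adjusted p = 0.0896), nor with any of the 4 wild type arrays left out. Its adjusted p was 0.0709 and 0.0666 without untreated replicates 1 and 2, and 0.0555 and 0.0614 without treated replicates 1 and 2.

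Cd276 encodes B7-H3, a family member whose T cell receptor is not settled. Its log2 levels were 8.84 and 8.88 on the PBS arrays, 8.53 and 8.59 on the wild type HDM arrays, and 8.84, 8.94 and 9.08 on the Irf3-deficient HDM arrays. The treated wild type arrays were lowest and did not overlap either other group, whereas the untreated wild type and Irf3-deficient arrays overlapped. The wild type change of -0.30 ± 0.12 (SE) did not pass (adjusted p = 0.114). Between the treated genotypes Cd276 was 1.31-fold higher in Irf3-deficient cells (95% CI 1.11 to 1.54, adjusted p = 0.0223). That call was lost without either treated wild type array (0.36, adjusted p = 0.123 without replicate 1, and 0.42, adjusted p = 0.0759 without replicate 2). It was also lost without Irf3-deficient replicate 2 (0.40, adjusted p = 0.062) or 3 (0.33, adjusted p = 0.086).

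Cd83 was bright on every array, and its mean level exceeded that of 99.8% of the genes. It read 13.69 and 13.83 on the PBS arrays, 13.80 and 13.83 on the wild type HDM arrays, and 13.68, 13.88 and 13.89 on the Irf3-deficient HDM arrays. All 3 groups overlapped. The log2 change was 0.06 (95% CI -0.14 to 0.25, adjusted p = 0.755) in wild type. Between the treated genotypes the value was 0.00 (95% CI -0.17 to 0.18, adjusted p = 0.996). Neither passed, and both signs depended on the scaling. How far so bright a probeset can still report an increase was not tested.

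**Figure D2:**
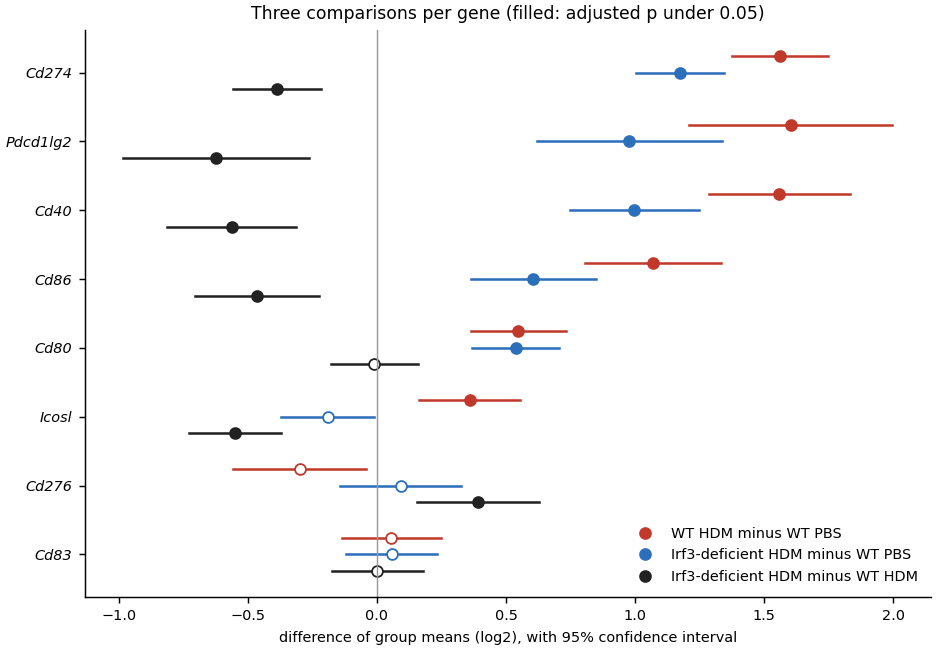
Differences of group means (log2) with 95% confidence intervals for treated against untreated wild type (red), treated Irf3-deficient against untreated wild type (blue) and treated Irf3-deficient against treated wild type (black), with filled points where the adjusted p was under 0.05. Cd80 has red and blue points at nearly the same place and a black interval from -0.18 to 0.16, whereas for Icosl the red and blue points lie on opposite sides of 0.

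Counted over the members, 5 were lower and 1 was higher in treated Irf3-deficient than in treated wild type cells, against 8.998% and 10.7% of all genes (19.7% in either direction). Groups did not overlap for 6 members, against 43.7% of all genes. Their median log2 difference was -0.43, with 0.00 over all genes. Without treated wild type replicate 1, 4 members were lower and 0 higher. Set against untreated wild type, 5 members were higher in treated Irf3-deficient cells and 0 lower, where 5.89% and 4.91% of all genes passed (10.8% in either direction). Groups did not overlap for 6 members, against 39.1% of all genes. This contrast changes genotype and treatment together. The comparisons share arrays pairwise, so their counts are not independent of each other.

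The share of a wild type rise that was kept was taken as the log2 difference of treated Irf3-deficient from untreated wild type cells, divided by the wild type rise. Its 95% interval was computed by Fieller's method from the variance of the fit. Cd80 kept 98.0% of its rise (95% interval 71.3 to 137), Cd274 75.1% (65.9 to 85.2), Cd40 63.9% (50.6 to 78.2), Pdcd1lg2 61.0% (42.2 to 81.3) and Cd86 56.6% (37.5 to 76.6). For Icosl the share was -53.3% (-193 to -2.56), a value below 0 because the Irf3-deficient mean lay under the untreated mean. The interval is not adjusted over genes, and that difference from untreated wild type did not pass (adjusted p = 0.184). Its divisor, a log2 rise of 0.36, was the smallest of the 6 and did not pass in every alternative. Over the 1664 genes that rose in wild type the median share was 29.3%, with quartiles of 6.60% and 58.2%. Of these genes 64.6% were also lower in treated Irf3-deficient than in treated wild type cells, as were 5 of the 6 members. A further count, of genes higher than in untreated wild type, took in 30.2% of the 1664 genes and 5 of the 6 members. Both counts reuse arrays that chose these genes, the treated wild type ones in the former and the untreated ones in the latter. That choice favours both calls. Icosl had a lower share than all but 46 of the 1664, while 1544 had a lower share than Cd80. As no untreated Irf3-deficient cells were analysed, a smaller rise and a different starting level cannot be told apart.

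Single Irf3-deficient arrays, set against the same wild type means, differed most for Pdcd1lg2 and Cd86. For Pdcd1lg2 the shares were 44.3%, 53.3% and 85.6%, and for Cd86 they were 35.6%, 58.7% and 75.6%. For Cd40 they were 53.9%, 62.8% and 75.1%. In these 3 genes replicate 3 was the highest and replicate 1 the lowest. Cd274 was tight, at 73.4%, 73.0% and 79.1%, and Cd80 gave 88.4%, 104% and 102%. Icosl was below 0 on every array, at -59.5%, -52.0% and -48.5%. Among Cd80, Cd274, Cd40, Pdcd1lg2 and Cd86 every interval overlapped every other, and the differences between their shares were not tested.

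**Figure D3:**
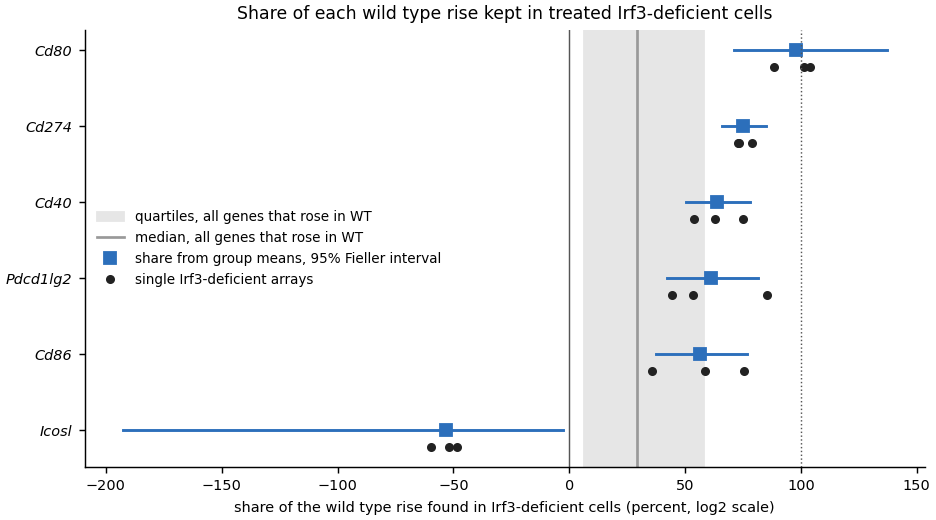
Share of each wild type rise found in treated Irf3-deficient cells (percent, on the log2 scale), from group means with 95% Fieller intervals (blue squares) and from the 3 single Irf3-deficient arrays (black dots), over the quartiles (grey band) and median (grey line) of the 1664 genes that rose. Cd80 lies near 100%, Cd274, Cd40, Pdcd1lg2 and Cd86 lie between 56.6% and 75.1%, and Icosl lies below 0.

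Genes that carry the CD40 signal rose in wild type in 8 of 16 measured cases, with 0 falls and a median log2 change of 0.35. Among all genes 8.35% rose and 9.23% fell in wild type, and 8.998% were lower and 10.7% higher between the treated genotypes. Birc2, a ubiquitin ligase of the TRAF complex, rose by 1.38 ± 0.12 (SE, adjusted p = 3.83e-06). The adaptor Traf2 rose by 1.07 (adjusted p = 5.82e-05), and the alternative NF-kB subunits Relb and Nfkb2 by 1.08 (adjusted p = 6.53e-05) and 0.90 (adjusted p = 7.93e-05). In treated Irf3-deficient cells 8 of the 16 were lower than in treated wild type and 2 were higher (median -0.34), and without treated wild type replicate 1 the lower count was 4. Traf2 differed by -1.02 (adjusted p = 4.86e-05) and Relb by -0.97 (adjusted p = 7.83e-05). Relb kept 9.63% of its rise (95% interval -16.1 to 29.8) and Traf2 5.08% (-21.2 to 25.3), below the 63.9% of Cd40 itself, with intervals that do not meet that of Cd40. Birc2 kept 47.2% (32.8 to 61.4), Traf6 51.2% (29.8 to 72.8), Traf1 46.9% (23.5 to 69.7) and Nfkb2 38.9% (17.3 to 59.0). Map3k14 kept 30.6% (-46.8 to 82.7) and Ikbkb -2.37% (-152 to 50.6), and the intervals of all these other risers reach that of Cd40. The median share over the 8 risers was 34.8%, against 29.3% over all genes that rose. The classical subunits Rel and Rela stood at wild type changes of 0.17 (adjusted p = 0.203) and 0.31 (adjusted p = 0.073).

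Compared with untreated wild type, 5 of the 16 CD40 signalling genes were higher in treated Irf3-deficient cells and 0 lower, with a median of 0.19. Over all genes 5.89% were higher and 4.91% lower in this comparison. Birc2 was higher by 0.65 (adjusted p = 0.00205), Ikbkg, the regulatory subunit of the NF-kB kinase, by 0.79 (adjusted p = 0.00563), and the adaptors Traf6 by 0.43 (adjusted p = 0.0125) and Traf1 by 0.42 (adjusted p = 0.0274). Without untreated replicate 1 the count was 1, and it was 2 without Irf3-deficient replicate 2 and 3 without Irf3-deficient replicate 3. Ikbkg was 1 of the 2 genes higher in treated Irf3-deficient than in treated wild type cells, by 0.59 (adjusted p = 0.0157). Without treated wild type replicate 2 it did not pass (0.36, adjusted p = 0.213).

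Other costimulatory and checkpoint genes of dendritic cells rose in 10 of 13 cases and fell in 2 (median 0.76). Among all genes 8.35% rose and 9.23% fell in wild type, and 10.7% were higher and 8.998% lower between the treated genotypes. Against untreated wild type the shares of all genes were 5.89% higher and 4.91% lower. Cd200, the ligand of an inhibitory myeloid receptor, rose by 2.38 ± 0.12 (SE, adjusted p = 3.79e-08). Cd70, the ligand of CD27, rose by 1.83 (adjusted p = 4.31e-06), Nectin2, a ligand of DNAM-1, by 1.68 (adjusted p = 2.01e-06), and Lgals9, which encodes galectin-9, by 1.55 (adjusted p = 3.49e-05). Between the treated genotypes 7 of the 13 were lower in Irf3-deficient cells and 0 higher (median -0.45), among them Nectin2 by -1.04 (adjusted p = 6.47e-05), Cd70 by -1.02 (adjusted p = 0.000287), Cd200 by -0.96 (adjusted p = 4.74e-05) and Tnfsf4, the OX40 ligand gene, by -0.93 (adjusted p = 0.00024). Cd200 kept 59.8% of its rise (51.6 to 68.1) and Tnfsf4 15.5% (-11.5 to 36.9). Slamf1, a self-binding receptor of the SLAM family, kept 121% (85.3 to 186). Relative to untreated wild type 6 were higher and 2 lower, with Cd200 at 1.43 (adjusted p = 8.23e-06), Slamf1 at 1.23 (adjusted p = 0.00104), Cd70 at 0.82 (adjusted p = 0.00317) and Cd48 at -0.97 (adjusted p = 0.000208). Without untreated replicate 1 the higher count was 2.

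**Figure D4:**
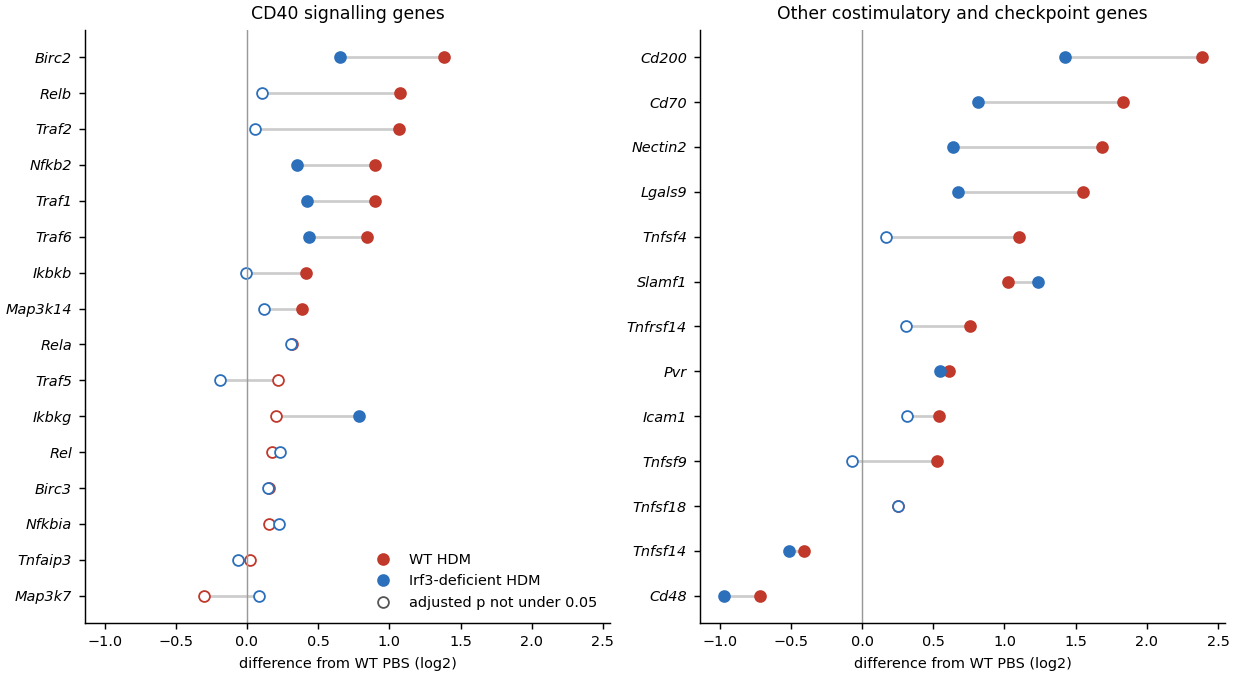
Differences from untreated wild type (log2) of treated wild type (red) and treated Irf3-deficient cells (blue) for 16 CD40 signalling genes and 13 other costimulatory and checkpoint genes, with filled points where the adjusted p was under 0.05. Relb and Traf2 have red points above 1 and blue points near 0, whereas for Pvr and Slamf1 the red and blue points lie close together.

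Genes of surface turnover and of Cd274 induction were mixed, with 2 of 13 rising in wild type and 2 falling (median -0.04). Over all genes 8.35% rose and 9.23% fell. Irf1, a transcription factor that acts on the Cd274 promoter downstream of interferon, read 10.95 and 11.31 (log2 level) on the PBS arrays, 12.20 and 12.09 on the wild type HDM arrays, and 11.06, 11.21 and 11.17 on the Irf3-deficient HDM arrays. The Irf3-deficient arrays of Irf1 lay inside the untreated range, unlike those of Cd274. Irf1 rose by 1.01 ± 0.13 (SE, adjusted p = 0.000109) and kept 1.70% of that rise (-27.8 to 23.6). Stat3, another factor of that route, rose by 0.84 (adjusted p = 0.000163) and kept 46.7% (23.7 to 69.2). Ifngr1, a chain of the interferon gamma receptor, fell by 0.82 (adjusted p = 0.000269) and Cmtm4, which stabilises PD-L1 at the surface, fell by 0.51 (adjusted p = 0.00771), a call lost without treated wild type replicate 1 (-0.42, adjusted p = 0.0702). Marchf1, the ubiquitin ligase that removes CD86 from the surface, changed by -0.14 (adjusted p = 0.52).

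Between the treated genotypes 3 of the 13 turnover and induction genes were higher in Irf3-deficient cells and 2 lower (median 0.08). Over all genes 10.7% were higher and 8.998% lower. Against untreated wild type 5.89% of all genes were higher and 4.91% lower. Irf1 differed by -0.996 (adjusted p = 6.42e-05), Stat3 by -0.45 (adjusted p = 0.00688), Ifngr1 by 0.73 (adjusted p = 0.000338) and Cmtm4 by 0.44 (adjusted p = 0.00993). Without treated wild type replicate 1, 1 was higher and 1 lower, and Stat3 (-0.36, adjusted p = 0.0656) and Cmtm4 (0.35, adjusted p = 0.111) did not pass. Relative to untreated wild type 2 were higher and 0 lower, Jak2 by 0.34 (adjusted p = 0.0226) and Stat3 by 0.39 (adjusted p = 0.026). Neither passed without untreated replicate 1 or without Irf3-deficient replicate 2 or 3, and Jak2 did not pass without untreated replicate 2.

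Other B7-like and butyrophilin genes included 0 risers and 2 fallers of 9 in wild type (median 0.06), against 8.35% and 9.23% of all genes. Vsir, which encodes the inhibitory B7 relative VISTA, fell by 0.88 ± 0.11 (SE, adjusted p = 0.000114), from 11.94 and 12.11 to 11.21 and 11.07. It read 11.65, 11.56 and 11.45 in treated Irf3-deficient cells, between the wild type groups, and was higher there than in treated wild type by 0.41 (adjusted p = 0.012). Without treated wild type replicate 2 that difference was 0.34 (adjusted p = 0.106). Ildr2 fell by 0.45 in wild type (adjusted p = 0.0212) and was higher in treated Irf3-deficient cells by 0.57 (adjusted p = 0.00274). Its fall did not pass without untreated replicate 1 (-0.44, adjusted p = 0.0906) or 2 (-0.47, adjusted p = 0.0658), or without treated replicate 2 (-0.34, adjusted p = 0.193). Those 2 were the genes higher between the treated genotypes, with 0 lower (median -0.02), against 10.7% and 8.998% of all genes. Compared with untreated wild type, Btnl1 was higher by 0.51 (adjusted p = 0.00764) and Vsir differed by -0.48 (adjusted p = 0.00966). Btnl1 did not pass without untreated replicate 1 (0.46, adjusted p = 0.0805), nor Vsir without untreated replicate 2 (-0.39, adjusted p = 0.0978).

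Receptors that bind the members, most of them known from T cells, rose in 4 of 7 cases with 0 falls (median 0.63). Over all genes 8.35% rose and 9.23% fell, and 8.998% were lower between the treated genotypes. Treml2, a proposed partner of B7-H3, rose by 1.26 (adjusted p = 9.2e-05), Icos by 1.01 (adjusted p = 0.00103), Rgmb, a partner of PD-L2, by 0.67 (adjusted p = 0.00169) and Pdcd1, the gene of PD-1, by 0.63 (adjusted p = 0.00448). All 4 were lower in treated Irf3-deficient than in treated wild type cells, with Treml2 at -1.23 (adjusted p = 5.88e-05), Pdcd1 at -0.56 (adjusted p = 0.00484), Icos at -0.55 (adjusted p = 0.0229) and Rgmb at -0.39 (adjusted p = 0.0249). The median over the 7 was -0.39, and the count was 1 without treated wild type replicate 2, and 2 without treated wild type replicate 1 or Irf3-deficient replicate 2 or 3. Relative to untreated wild type 0 passed in limma, with a median of 0.04, and 1 passed without Irf3-deficient replicate 3. The T cell markers Cd3e, Cd3d and Cd3g changed by -0.11, -0.11 and -0.03 in wild type, none passing (adjusted p = 0.668, 0.632 and 0.896). Of all 6 measured T and NK cell markers 2 rose, Cd8a by 1.41 (adjusted p = 6.17e-06) and Ncr1 by 0.51 (adjusted p = 0.00489), and Cd4 fell by 1.02 (adjusted p = 0.000622). Their mean log2 level was 7.15 to 7.34 on the PBS arrays, 7.33 to 7.37 on the wild type HDM arrays and 7.12 to 7.34 on the Irf3-deficient ones, and their part in the receptor values was not tested.

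For each member the 3 genes with the most similar profile were taken by Pearson correlation over the 7 arrays, among 1817 genes whose arrays spanned at least 1 log2 unit. The arrays form 3 groups, so these values mostly follow the group means and carry no p. Cd274 was closest to Il2ra (r = 0.999), Il12b (0.996) and Lad1 (0.996), and Cd40 to Gm9895 (0.993), Pla1a (0.991) and Glipr2 (0.986). Cd86 was closest to Poglut1 (0.989), Mir155 (0.985) and Dll4 (0.984), and Pdcd1lg2 to Macc1 (0.987), Tpbg (0.985) and Tmem131 (0.984). Cd80 was closest to Il1rn (0.991), Nr4a3 (0.987) and Dusp14 (0.982). These genes kept 100.1%, 87.9% and 92.0% of their own rises, which largely follows from their choice by a profile like that of Cd80. Icosl was closest to Txndc17 (0.987), Arpc5l (0.986) and BC147527 (0.984), and Cd276 to Plk3 (0.985), Slc19a1 (0.979) and Slc20a1 (0.976). Cd83 had no close match, with Gpr31b (0.760), Pgf (0.738) and Il2 (0.672) highest.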

How the data were processed

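The deposited values were log2 expression values of 35556 probesets on 7 Mouse Gene 1.0 ST arrays, per the labels, with array medians of 7.60 to 7.69. Per the submitters' processing notes, the tools were R 3.2.1, oligo and RMA, with no roles or order stated. A shift shared by most transcripts would not show in normalised values, and no detection call, scan date or genome build was given in the sources used here. Of the probesets, 21789 carried 1 gene symbol in the platform annotation, and for each of the 19938 genes the one with the highest mean was used, with symbols updated through RefSeq. No brightness filter was applied. One mean per group was fitted with limma 3.58.1 in R 4.3.3 (eBayes with an intensity trend, 4 residual and 8.34 prior degrees of freedom). Tests were two-sided, and each adjusted p above is from limma, by Benjamini-Hochberg over all 19938 genes (called under 0.05). The fit was tested on simulated data. The members and lists were chosen with earlier results of these data known. Named genes are Irf3, the members, up to 4 called genes per list and comparison by smallest p, the 3 genes nearest to each member, and some markers and list genes named after their values were seen. The number of arrays limits the precision. Alternatives were other variance moderation, scaling, probeset choice, a filter, pairwise fits, the replicate block and each array left out.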

Additional observations from a re-analysis of the deposited data

How the results depend on the processing

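Across 15 alternatives, the wild type rises of Cd274, Cd40, Pdcd1lg2, Cd86 and Cd80 passed every time, as did the genotype differences of Cd274, Cd40 and Icosl. Calls of other members that were lost stand beside their values above. Some differences of Cd80 and Cd83, which passed in no setting, changed sign. For Cd80 between the treated genotypes the value was 0.0477 with repeated quantile normalisation, 0.0866 with the mean of probesets, and -0.0530 to 0.0312 with single arrays left out. For Cd83 it was -0.0196 with median centring, -0.0139 with quantile normalisation, -0.0366 with the replicate block and -0.0366 to 0.0698 with single arrays left out. The wild type change of Cd83 was -0.0454 with quantile normalisation and -0.0104 to 0.123 with single arrays left out. Its difference from untreated wild type was -0.0593 and -0.00936 to 0.126 in the same order. The causes were not tested. On a linear scale the kept share was 64.3% for Cd274, 51.1% for Cd40, 47.6% for Pdcd1lg2, 47.5% for Cd86, 97.6% for Cd80 and -44.0% for Icosl. With quantile normalisation it was 111% for Cd80 and -118% for Icosl, and with the mean of probesets 117% for Cd80. With single arrays left out it ranged from 73.2% to 76.9% for Cd274, 58.3% to 69.0% for Cd40, 91.0% to 106% for Cd80, 47.1% to 67.2% for Cd86, 48.8% to 69.4% for Pdcd1lg2 and -55.8% to -50.3% for Icosl. Genes called numbered 3505 in the wild type response, 3932 between the treated genotypes and 2153 against untreated wild type. With 1 array left out they ranged from 2333 to 3724, 2562 to 3906 and 749 to 2359, the lowest being without treated wild type replicate 2 for the former pair and without untreated replicate 1 for the latter. With the replicate block 1426 genes passed against untreated wild type, and Icosl (0.36, adjusted p = 0.0531) in wild type and Cd276 (0.33, adjusted p = 0.118) between genotypes did not pass. Same-numbered deviations from the group means correlated at -0.233 to 0.178. In a group of 2 arrays the deviations mirror each other, so these values cannot decide whether replicate numbers pair the samples. An array left alone in its group was assumed to vary like the others.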
